A study of Mus musculus with 10 samples.

Results

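The genes followed here in sorted mouse lung endothelial cells act in mitotic chromosome structure: the condensin subunits Smc2, Smc4, Ncapd2, Ncapd3, Ncapg, Ncapg2, Ncaph and Ncaph2, the DNA topoisomerase Top2a and Mki67, which encodes the proliferation antigen Ki-67. These 10 genes were chosen by symbol, with earlier results of these data known. Each matched 1 row of the 55385 gene rows of the count table. All 10 passed the filter on low counts. RNA sequencing compared 5 control libraries (Tnfsf10 L/L and Cdh5.Cre W/W) with 5 libraries labelled EC-TRAIL KO, called KO-labelled here (Tnfsf10 L/L and Cdh5.Cre Tg/W). In both groups the gene of the death ligand TRAIL, Tnfsf10, is flanked by loxP sites. In the second group a tamoxifen-inducible Cre under the endothelial Cdh5 promoter is present as well. The strain is given as Cdh5.iCreERT2xTnfsf10Lox/Lox for all libraries, and the same treatment text stands under both groups: mice of 8 to 14 weeks, with tamoxifen at 1 mg per mouse per day for 5 or 10 days. Which duration applies to which library is not given. The Cre transgene and the deletion come together in this design and cannot be told apart. The design text counts mice, but no label ties a library to a mouse of its own, and p-values cover the spread between libraries only, which may be partly technical.

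Condensins are ring-shaped ATPase complexes that fold replicated chromatin into compact mitotic chromosomes. Smc2 and Smc4 form the shared ATPase pair; condensin I adds the kleisin Ncaph and the HEAT-repeat subunits Ncapd2 and Ncapg, and condensin II adds Ncaph2, Ncapd3 and Ncapg2. Condensin II is nuclear through interphase, whereas condensin I gains access to chromosomes after nuclear envelope breakdown. Top2a removes the links between sister DNA molecules, and Ki-67 coats mitotic chromosomes and keeps them apart. Most endothelial cells of an adult lung are quiescent, and transcripts of Top2a and Mki67 are used as markers of cycling cells.

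The DNA just before the transcription starts is shown for the 3 members that passed the test below, Mki67, Top2a and Ncapg, and for Ncaph2, the member with the smallest change. Genes of late cell cycle phases often carry a CHR element near the start (searched as TTTGAA and also in the form TTCGAA) and CCAAT boxes. E2F sites were searched as the word TTCCCGC, as well as the words TTCGCGC and also TTGCCGC and lastly TTGGCGC. Both strands were searched. Capitals mark every such word in the 250 bases before the RefSeq start (GRCm38.p6), 5′ to 3′ on the strand of the gene; no words of different kinds overlapped in these windows.
Mki67 chr7:135716380-135716629, minus strand: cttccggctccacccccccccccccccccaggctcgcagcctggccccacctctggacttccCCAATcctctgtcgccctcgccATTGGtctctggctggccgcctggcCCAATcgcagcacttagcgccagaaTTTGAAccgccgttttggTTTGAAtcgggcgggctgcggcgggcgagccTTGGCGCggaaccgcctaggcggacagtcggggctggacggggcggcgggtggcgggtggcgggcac
Top2a chr11:99024190-99024439, minus strand: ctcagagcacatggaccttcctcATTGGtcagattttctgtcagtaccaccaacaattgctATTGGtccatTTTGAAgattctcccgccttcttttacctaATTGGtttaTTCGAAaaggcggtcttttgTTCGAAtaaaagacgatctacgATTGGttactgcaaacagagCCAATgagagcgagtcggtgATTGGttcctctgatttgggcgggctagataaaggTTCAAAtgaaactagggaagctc
Ncapg chr5:45669675-45669924, plus strand: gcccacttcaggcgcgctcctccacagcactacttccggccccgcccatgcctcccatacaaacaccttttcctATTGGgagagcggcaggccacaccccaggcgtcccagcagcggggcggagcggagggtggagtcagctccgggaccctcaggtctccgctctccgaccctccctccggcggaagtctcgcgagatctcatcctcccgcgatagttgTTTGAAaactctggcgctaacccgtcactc
Ncaph2 chr15:89355469-89355718, plus strand: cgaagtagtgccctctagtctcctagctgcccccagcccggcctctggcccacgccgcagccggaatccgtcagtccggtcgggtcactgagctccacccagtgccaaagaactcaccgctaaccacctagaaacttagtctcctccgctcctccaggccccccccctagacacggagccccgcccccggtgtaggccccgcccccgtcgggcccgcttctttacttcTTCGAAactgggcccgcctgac
A RefSeq promoter was matched for 9 of the 10 members, all but Smc4. The Mki67 window held 2 CHR words, 3 CCAAT words and 1 E2F word, the Top2a window 4 CHR and 6 CCAAT words, and the Ncapg window 1 of each of these 2 kinds. The Ncaph2 window held 1 CHR word and neither of the others. Of the 9 windows, 7 held a CHR word, against 17.1% of all 32851 RefSeq windows of this length. A CCAAT word was in 5 windows (33.8% of all) and an E2F word in 4 (7.89% of all). Both CHR and CCAAT words were in 5 (6.02% of all), those of Mki67, Top2a, Ncapg, Ncapd2 and Smc2. Ncapd3 had 1 E2F word and neither other kind, and Ncaph had none of the 3. These are matches of letters and do not show that a factor binds there.

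Across the series, control libraries held 34435835 to 56897822 expected counts and KO-labelled ones 29806083 to 34702571, a range that overlaps only at its top. The targeted gene Tnfsf10 had 298.2 to 373.6 CPM (counts scaled to a common library size, with TMM factors) in controls and 80.99 to 318.03 CPM in the other group. Replicate 2 of that group held the highest of its values, inside the control range. The rest of that group lay at 80.99 to 198.9 CPM, below every control. The difference between the groups did not pass (log2 fold change -0.90, edgeR adjusted p = 0.425). Over 20 alternative settings the log2 fold change of Tnfsf10 lay between -1.21 and -0.72, and it passed in 1 of them. The value of -1.21 came with replicate 2 of the KO-labelled libraries left out. The 8 endothelial markers examined, Cdh5 and Pecam1 among them, were detected in every library. Markers of alveolar epithelium, leukocytes, fibroblasts and mural cells were also present, 19 of 20 of them in every library. The exception was the T cell gene Cd3e, at 0 counts in control replicate 5. The signal of other cells was large. The alveolar marker Sftpc averaged 4377 CPM in controls and 4064 CPM in the KO-labelled libraries, beside 3822 and 4038 CPM for Cdh5. In controls the alveolar list summed to 6187 to 9522 CPM, and the endothelial list to 11074 to 12980 CPM. Which cells carried the members' transcripts was not tested. No marker of any of the 5 lists passed the test.

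Mki67, Top2a and Ncapg were higher in the KO-labelled libraries, by 4.18-fold to 5.66-fold. Of the 10 members these 3 rose, 0 fell and 7 did not pass, where 0.439% of the 17997 genes tested were called higher and 0% lower. Since the members were chosen with earlier results known, these counts describe them and do not test the set. All 10 log2 fold changes were above 0, with a median of 1.2, against a median of -0.0085 over all genes. In 7 of the 10 every KO-labelled library lay above every control, as did 1.38% of all genes tested; no member showed the reverse order, as 0.261% of genes did.

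Mki67 and Top2a had the largest log2 fold changes of the 10. Mki67 (ENSMUSG00000031004, GRCm38 chromosome 7, 135689784 to 135716361, minus strand) was at 32.5, 49.8, 24.3, 56.1 and 37.5 CPM in control replicates 1 to 5. In the KO-labelled libraries it was at 86.7, 469.2, 186.6, 256.05 and 134.96 CPM in the same order. Every library of the second group lay above every control, and replicate 2 stood well above the other 4. Means were 40.05 ± 12.9 and 226.7 ± 149.4 CPM (SD, n = 5 each), 5.66-fold higher (log2 fold change 2.50, SE 0.403; edgeR quasi-likelihood adjusted p = 0.0432).

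Top2a (ENSMUSG00000020914, chromosome 11, 98992943 to 99024189, minus strand) was at 13.4, 19.98, 10.9, 20.9 and 15.9 CPM in controls against 33.2, 170.2, 71.7, 85.8 and 50.9 CPM in the KO-labelled libraries. The order of the libraries was the same as for Mki67 within both groups: control replicate 3 was lowest and replicate 4 highest, and among the others replicate 1 was lowest and replicate 2 highest. The log2 fold change was 2.34 (SE 0.374; edgeR adjusted p = 0.0432). Per kilobase of principal transcript, the level of Mki67 was 1.15 to 1.39 times that of Top2a in controls and 1.35 to 1.55 times in the other group. The ratio of the pair stayed in a narrow range while the level of each spread widely over the libraries. The counterpart of Top2a that resting cells also use, Top2b, had 179.04 ± 11.4 CPM in controls against 182.4 ± 19.7 CPM in the KO-labelled libraries (SD, n = 5 each; edgeR adjusted p = 0.997). Exons of Rarb on the other strand cover 12.3% of its exonic sequence.

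**Figure D1:**
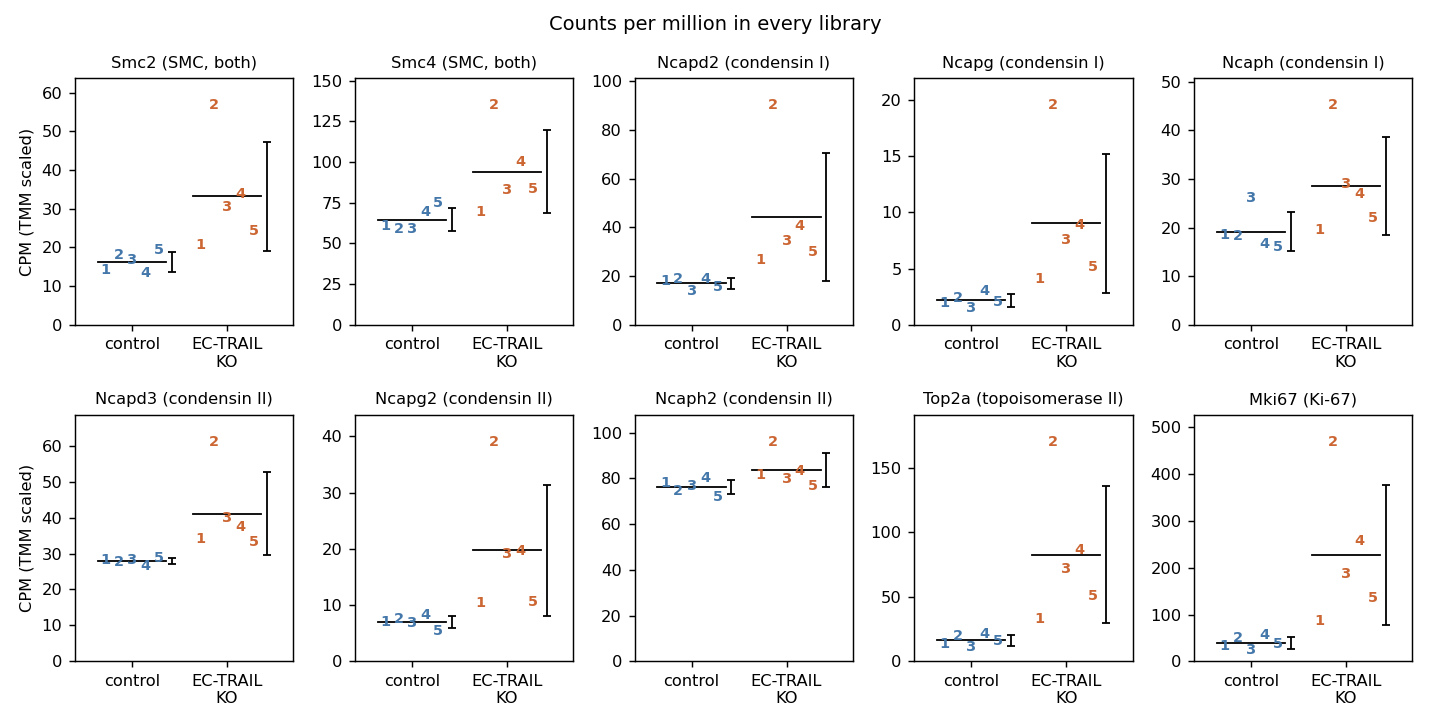
CPM (vertical axes, from 0) of the 10 genes in every library. Digits are replicate numbers, horizontal lines group means and bars SD over 5 libraries; replicate 2 of the KO-labelled libraries is the highest of all 10 libraries in every panel.

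Among the condensin I subunits, Ncapg rose and Ncapd2 and Ncaph did not pass. Ncapg (ENSMUSG00000015880, chromosome 5, 45669919 to 45700546, plus strand) was at 1.94, 2.36, 1.47, 2.97 and 2.04 CPM in controls against 4.08, 19.6, 7.58, 8.87 and 5.11 CPM in the KO-labelled libraries. These values rest on 69 to 139 counts per control library and 140 to 590 in the other group. The groups did not overlap, and Ncapg was 4.18-fold higher (log2 fold change 2.06, SE 0.384; edgeR adjusted p = 0.0432). Exons of Ncapg share 944 bases, 13.4% of its exonic sequence, with Lcorl on the other strand, and whether counting used strand is not given. Lcorl itself had a log2 fold change of 0.21 (edgeR adjusted p = 0.997).

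Ncapd2 (ENSMUSG00000038252, chromosome 6, 125168007 to 125191701, minus strand), a scaffold subunit of condensin I, was at 17.7, 18.8, 13.9, 18.9 and 15.7 CPM in controls against 26.6, 90.2, 34.5, 40.5 and 29.7 CPM in the KO-labelled libraries. The groups did not overlap, but replicate 2 stood far above the other 4 libraries of its group. The log2 fold change was 1.38 (SE 0.292), short of the threshold (edgeR adjusted p = 0.0758). Ncaph (ENSMUSG00000034906, chromosome 2, 127103809 to 127133954, minus strand), the kleisin that closes the condensin I ring, was at 18.5, 18.3, 26.1, 16.7 and 16.001 CPM in controls against 19.5, 45.3, 29.01, 26.9 and 21.9 CPM in the other group. Here the groups overlapped, because control replicate 3 lay above replicates 1 and 5 of the KO-labelled libraries (log2 fold change 0.58, SE 0.211; edgeR adjusted p = 0.713).

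The condensin II subunits did not pass the test. Ncapg2 (ENSMUSG00000042029, chromosome 12, 116405402 to 116463731, plus strand) was at 7.08, 7.56, 6.86, 8.33 and 5.44 CPM in controls against 10.4, 39.1, 19.1, 19.6 and 10.6 CPM in the KO-labelled libraries. The groups did not overlap (log2 fold change 1.48, SE 0.318; edgeR adjusted p = 0.0805). Ncapd3 (ENSMUSG00000035024, chromosome 9, 27030175 to 27095315, plus strand) was nearly level in controls, at 26.5 to 28.6 CPM, and was at 34.05, 61.1, 39.8, 37.3 and 33.3 CPM in the other group. With so tight a control group these values did not overlap either, although the fold was small (log2 fold change 0.56, SE 0.146; edgeR adjusted p = 0.21). Ncaph2 (ENSMUSG00000008690, chromosome 15, 89355719 to 89372826, plus strand), the condensin II kleisin, was at 78, 74.6, 76.9, 80.04 and 71.8 CPM in controls against 81.6, 96.1, 79.7, 83.4 and 76.9 CPM in the KO-labelled libraries. These ranges overlapped, and the log2 fold change was 0.13 (SE 0.0691; edgeR adjusted p = 0.997). Exons of Sco2 and Tymp on the other strand cover 19.7% and 12.7% of the exonic sequence of Ncaph2; both were at or below 3.35 CPM on average in either group.

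Neither of the SMC ATPase subunits shared by both complexes passed the test. Smc2 (ENSMUSG00000028312, chromosome 4, 52439243 to 52488260, plus strand) was at 14.1, 17.9, 16.6, 13.3 and 19.4 CPM in controls against 20.7, 56.8, 30.3, 33.7 and 24.1 CPM in the KO-labelled libraries, without overlap. Its log2 fold change was 1.03 (SE 0.235; edgeR adjusted p = 0.114). Smc4 (ENSMUSG00000034349, chromosome 3, 69004738 to 69034623, plus strand) was at 60.6, 58.9, 58.9, 69.3 and 74.6 CPM in controls against 69.4, 135.1, 82.7, 99.8 and 83.5 CPM in the other group. Replicate 1 of the latter lay within the control range, and the log2 fold change was 0.55 (SE 0.154; edgeR adjusted p = 0.307).

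The calls of Mki67, Top2a and Ncapg sit close to the threshold: of the 79 genes called, 77 had an adjusted p between 0.04 and 0.05. Leaving out any 1 control, or replicate 3 or 4 of the KO-labelled libraries, left 0 members passing. In each of these settings 2 genes of the whole table were called higher, and 0 or 1 lower. Without replicate 1 of the KO-labelled libraries 6 members passed, where 154 of 18272 genes were called higher and 1 lower. Without replicate 2 of that group 4 passed, where 87 of 18259 genes were called higher and 1 lower. DESeq2 called 7 members higher and 0 lower (1.16% and 0.0167% of genes), and limma-voom called 0, with 2 genes called higher over the whole table. The 7 were Mki67, Top2a, Smc2, Ncapd2 and Ncapg, and Ncapd3 and Ncapg2 of condensin II. More cells with a transcript and more transcript per cell cannot be told apart in bulk RNA.

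Replicate 2 of the KO-labelled libraries was the highest of the 10 libraries for all 10 members; it was the highest for 16.8% of all genes tested. Replicate 4 came next in its group for 8 members and replicate 3 for 2, while replicate 1 was lowest for 8 and replicate 5 for 2. Replicate 2 was also the library of its group with the most Tnfsf10, and it had the lowest summed level of the alveolar, leukocyte, fibroblast and mural marker lists among the 10 libraries. The alveolar sum was 5141 CPM there, against 6187 to 9522 CPM in controls, and the mural sum was 197.4 CPM against 260.1 to 361.4 CPM. The leukocyte sum was 1042 CPM there, against 1227 to 1871 CPM in controls. Most of it was the single gene Lyz2, at 1001 CPM against 1182 to 1827 CPM. Other genes of the list did not share its low value. The pan-leukocyte gene Ptprc was at 4.64 CPM, against 1.6 to 4.51 CPM, and Cd79a at 3.25 CPM, against 1.41 to 3.16 CPM. Cd68, Itgam and Cd3e lay within their control ranges. The fibroblast sum was 294.4 CPM against 369.7 to 484.02 CPM. The part of these levels in the members' values was not tested. Without that library the log2 fold change of Mki67 was 2.05, of Top2a 1.90 and of Ncapg 1.57, each passing (edgeR adjusted p = 0.0207, 0.0163 and 0.0299).

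Levels were then compared between genes per kilobase of principal transcript, since a long transcript collects more reads. In controls the order from high to low was Ncaph2 at 23.1 ± 0.958, Smc4 at 14.9 ± 1.65, Ncaph at 7.09 ± 1.5 and Ncapd3 at 5.07 ± 0.148 CPM per kb (SD, n = 5). Mki67 (3.98 ± 1.28), Ncapd2 (3.67 ± 0.471), Top2a (3.11 ± 0.815) and Smc2 (3.01 ± 0.477) followed, and these neighbours lay within one another's spread. Ncapg2 at 1.51 ± 0.227 and Ncapg at 0.583 ± 0.15 CPM per kb were lowest (SD, n = 5). In the KO-labelled libraries, Mki67 was at 22.5 ± 14.8 CPM per kb, close to Smc4 at 21.8 ± 5.87 and Ncaph2 at 25.3 ± 2.25 (SD, n = 5), and these 3 overlapped. With merged exon lengths in place of transcript lengths, Mki67 ranked above Ncaph2 in this group.

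On this scale a small fold does not mean a small difference in level. Smc4, with a log2 fold change of 0.55, was higher by 6.86 CPM per kb on average, more than Ncapg, which passed with 2.06 and was higher by 1.86 CPM per kb. The differences of the condensin subunits ran from 1.86 (Ncapg) to 6.86 CPM per kb (Smc4), with Ncapd2 at 5.89, Ncaph at 3.49, Smc2 at 3.12, Ncapg2 at 2.71, Ncapd3 at 2.41 and Ncaph2 at 2.2. With these transcript lengths the differences of Ncaph2 and Ncapg were of like size, although their control levels were the highest and the lowest of the 10. With merged exon lengths they were less alike, at 1.73 for Ncaph2 and 0.974 CPM per kb for Ncapg. Top2a was higher by 12.7 and Mki67 by 18.6 CPM per kb. Without replicate 2 of the KO-labelled libraries the differences were 1.15 for Ncapg, 1.25 for Ncaph2, 1.5 for Ncapd3, 1.68 for Ncapg2, 1.94 for Ncaph and 2.03 for Smc2. In the same comparison they were 3.41 for Ncapd2, 4.49 for Smc4, 8.46 for Top2a and 12.5 for Mki67. These differences are a description and were not tested, and they depend on the transcript length assigned to each gene.

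**Figure D2:**
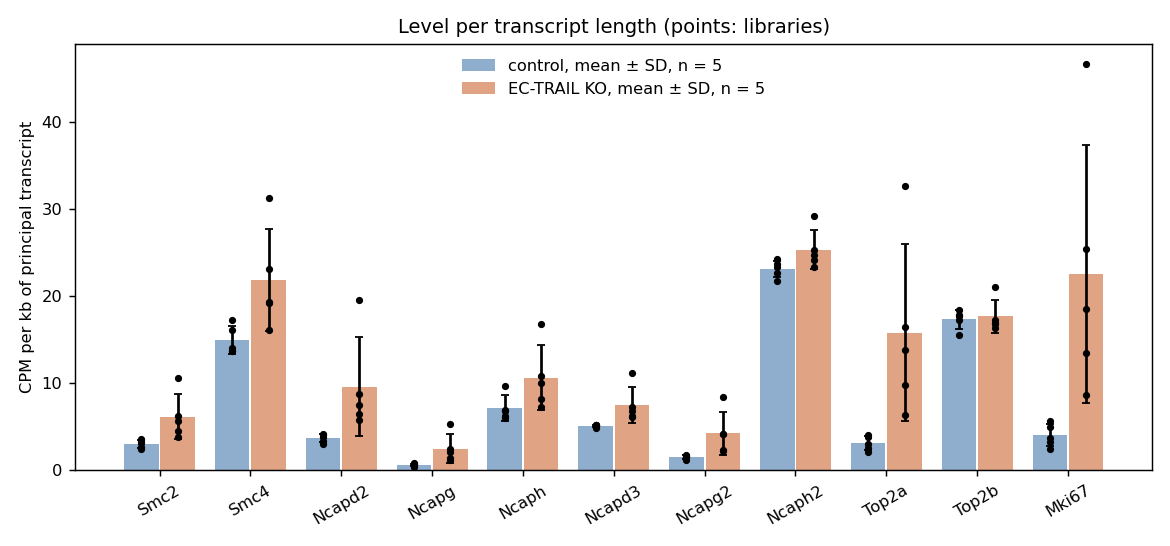
Level per kilobase of principal transcript (vertical axis, CPM per kb, from 0) for the 10 genes and Top2b; bars are means with SD over 5 libraries and points are libraries. Ncaph2, Smc4 and Top2b are high in both groups, whereas Mki67 and Top2a move from low to high levels.

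Within a library the subunits were far from equal, and the ratios narrowed in the second group. Smc4 was 4.11 to 6.53 times Smc2 per kilobase in controls and 2.98 to 4.33 times in the KO-labelled libraries. The kleisin Ncaph was 7.71 to 24.3 times Ncapg in controls and 3.18 to 6.58 times in the other group, and Ncaph2 was 13.6 to 18.7 times Ncapg2 in controls and 3.49 to 11.2 times in the other group. The last 2 ratios did not overlap between the groups. Top2b was 4.04 to 8.47 times Top2a in controls and 0.644 to 2.71 times in the KO-labelled libraries, where replicate 2 held more Top2a than Top2b.

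Whether a condensin I subunit changed by a larger fold than its condensin II counterpart was tested directly, with the log2 ratio of the pair within each library. Ncapd2 over Ncapd3 went from -0.72 ± 0.22 in controls to -0.01 ± 0.362 in the KO-labelled libraries (SD, n = 5 each), a difference of 0.71. Ncapg over Ncapg2 went from -1.71 ± 0.315 to -1.17 ± 0.158, a difference of 0.54 (SD, n = 5 each). In both pairs every library of the second group lay above every control (exact two-sided permutation p = 0.00794, the smallest that 5 against 5 can give, and 0.0106 after Benjamini-Hochberg adjustment over 4 pairs). Ncaph over Ncaph2 differed by 0.41, from -2.01 ± 0.271 to -1.61 ± 0.367 (SD, n = 5 each), and did not pass (exact permutation p = 0.0873, also 0.0873 after adjustment). Control replicate 3 was high for this ratio; without it the difference was 0.52 and passed (exact permutation, adjusted p = 0.0317), as it did without replicate 1 of the KO-labelled libraries (0.52, exact permutation, adjusted p = 0.0397). Without replicate 2 of the KO-labelled libraries the difference was 0.28 and did not pass (exact permutation, adjusted p = 0.159). Top2a over Top2b differed by 2.14 (exact permutation p = 0.00794, adjusted 0.0106). These ratios compare folds, not differences in level. Ncapg was higher by less than Ncapg2 in level, by 1.86 against 2.71 CPM per kb. For Ncapd2 and Ncapd3 the differences were 5.89 and 2.41, and for Ncaph and Ncaph2 3.49 and 2.2 CPM per kb. These differences in level were not tested.

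**Figure D3:**
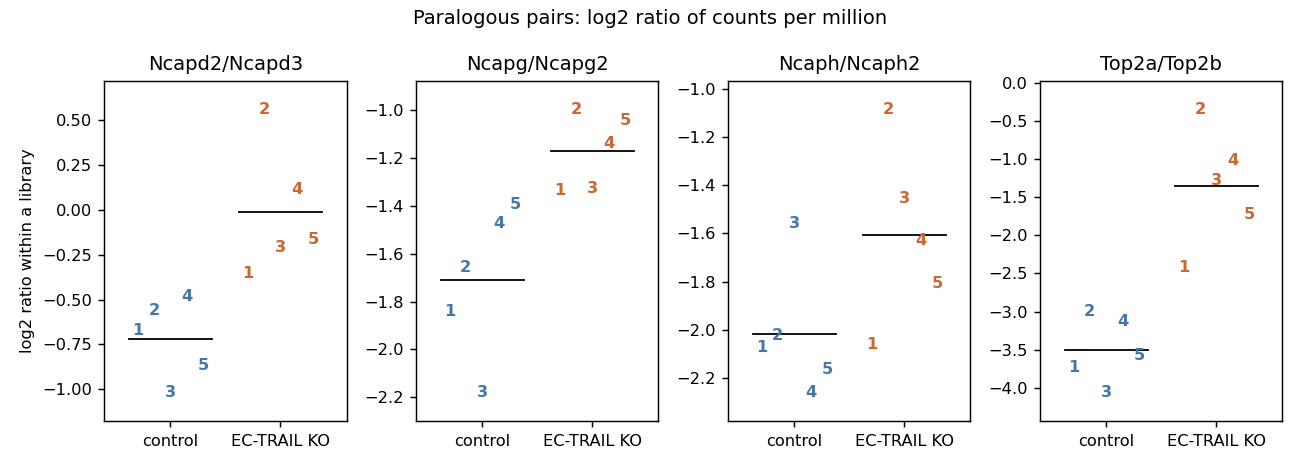
Log2 ratio of the CPM of 2 related genes within each library (vertical axes, each with its own range); digits are replicate numbers and lines group means. The groups separate in Ncapd2/Ncapd3, Ncapg/Ncapg2 and Top2a/Top2b and overlap in Ncaph/Ncaph2.

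The members followed one another across libraries to different degrees. Pearson correlations of log2 CPM with Mki67 over the 10 libraries were 0.999 for Top2a, 0.993 for Ncapg, 0.965 for Ncapd2 and 0.951 for Ncapg2. They were 0.919 for Smc4, 0.916 for Smc2 and 0.893 for Ncapd3, and lowest for Ncaph2 at 0.777 and Ncaph at 0.747. After each group's mean was taken out, Top2a stayed at 0.995 and Ncapg at 0.98, and Ncaph was at 0.544. Libraries share their group and depth, and replicate 2 of the KO-labelled libraries is the highest in each member, and these values describe the 10 libraries only.

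Among 12688 other protein-coding genes with a mean of at least 1 CPM, the 5 most like Mki67 in log2 CPM over the 10 libraries were Kif18b (r = 0.999), Cenpf (0.998), Kif23 (0.998), Knstrn (0.997) and Tpx2 (0.997). Kif18b, Kif23 and Tpx2 encode spindle proteins and Cenpf and Knstrn kinetochore proteins. The 3 genes most like Ncaph2 were Lmf2 (r = 0.981), Necap2 (0.979) and Psma4 (0.979). Lmf2 starts 60 bases from Ncaph2 on the other strand of chromosome 15 (89351004 to 89355659); its level was 131.3 ± 6.29 CPM in controls against 146.8 ± 13.2 CPM in the KO-labelled group (SD, n = 5 each; edgeR adjusted p = 0.955).

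Of 49 tested genes in 5 lists related to chromosome structure, 9 rose, 0 fell and 40 did not pass. Over all genes tested, 0.439% were called higher and 0% lower. All 5 lists were chosen with earlier results of these data known, so the counts of each list describe it and do not test it. Cohesin, the SMC complex that holds sister chromatids together, had 0 of 10 core and loading genes passing, with log2 fold changes from -0.05 to 0.17 and a median of 0.02. Rad21, its kleisin, had 176.03 ± 13.4 CPM in controls against 198.01 ± 20.8 CPM in the KO-labelled libraries, and the cohesin-associated Pds5a 129.2 ± 5.62 and 138.1 ± 9.94 CPM (SD, n = 5 each; edgeR adjusted p = 0.997 for both). The Smc5/6 complex, which acts in DNA repair, had 0 of 9 passing, with a median of 0.03 and Smc6 and Nsmce4a at 0.09 and 0.08. The other topoisomerases and the enzymes that remove trapped ones had 0 of 7 passing, with a median of 0.02, and Tdp2 and Top3a were at -0.13 and -0.08. Over these 3 lists 0 genes had an unadjusted p under 0.05, where 3.81% of all genes were higher and 1.32% lower at that level. DESeq2 called 0 in these lists, where it called 1.16% of all genes higher and 0.0167% lower. Counts of 0 in lists this small lie near these shares.

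Of 8 regulators of mitotic cohesion, 2 rose, 0 fell and 6 did not pass, where 0.439% of all genes were called higher and 0% lower. No difference between the lists was tested. Esco2, a cohesin acetyltransferase of S phase, was at 1.53 ± 0.507 CPM in controls against 6.73 ± 4.31 CPM in the KO-labelled libraries, 4.38-fold higher, and Sgo2a, a shugoshin that protects centromeric cohesin, was 3.86-fold higher (edgeR adjusted p = 0.0435 and 0.0432). Exons of Kctd18 on the other strand cover 35% of the exonic sequence of Sgo2a. Cdca5, which encodes sororin, had the highest log2 fold change of the list at 2.27 but did not pass (edgeR adjusted p = 0.0707), and Pttg1, which encodes securin, was at -0.21 (edgeR adjusted p = 0.957). The median of the list was 1.56.

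Of 15 regulators of condensin and genes of the chromosome periphery, 7 rose, 0 fell and 8 did not pass, against the same 0.439% higher and 0% lower of all genes. Their median log2 fold change was 1.08. Cdk1, the mitotic kinase that phosphorylates condensin, was at 2.34 ± 0.646 CPM in controls against 12.8 ± 8.55 CPM in the KO-labelled libraries, 5.44-fold higher. The chromosomal passenger genes Aurkb, Cdca8 and Birc5 were 5.49-fold, 5.09-fold and 4.45-fold higher, and their partner Incenp did not pass (log2 fold change 1.08, edgeR adjusted p = 0.0773). Cdca2, which encodes a phosphatase-targeting subunit on mitotic chromosomes, was 4.29-fold higher and the kinase Plk1 3.51-fold. The edgeR adjusted p was 0.0432 for Cdk1, Aurkb, Cdca8, Birc5, Cdca2 and Plk1 alike. Mcph1, which encodes the condensin II inhibitor microcephalin, was at 0.28, and the Ki-67 binding partner Nifk at 0.08, neither passing (edgeR adjusted p = 0.997). The calls in both lists were lost when any 1 control, or replicate 3 or 4 of the KO-labelled libraries, was left out, and with limma-voom or library size only. In each of these settings 2 genes of the whole table were called higher. With library size only, Cdk1 and Esco2 missed the threshold narrowly (edgeR adjusted p = 0.0501 and 0.0502).

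**Figure D4:**
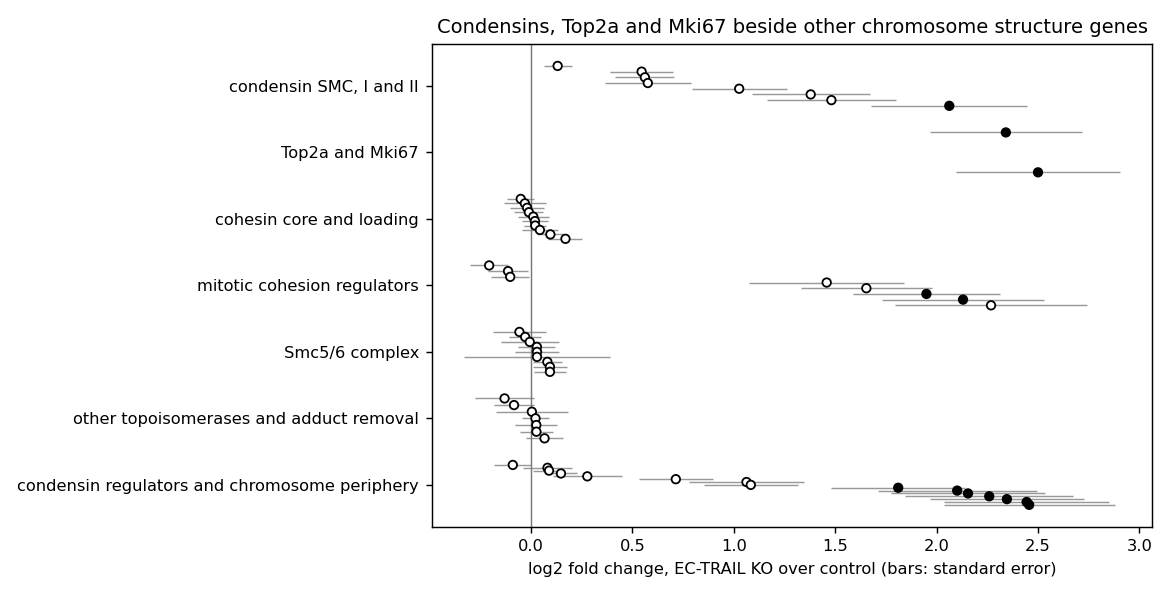
Log2 fold change, KO-labelled libraries over controls (horizontal axis, bars give the standard error), for each tested gene of the condensin, Top2a and Mki67 set and of 5 lists of related genes. Filled points passed the test; cohesin, Smc5/6 and the other topoisomerases lie around 0.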

How the data were processed

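Poly-adenylated RNA of sorted lung endothelial cells was sequenced with a stranded kit, per the labels' protocols. STAR 2.7.1a, RSEM 1.2.28 and GRCm38 are listed, per the submitters' processing notes. Annotation release, read filters and the strand option: not given in the sources used here. Values the authors deposited are expected counts per gene, not normalized, 81.2% of them whole. They were rounded and analysed in R 4.3.3. Symbols, positions and lengths came from GENCODE M21 (GRCm38), in which 55144 of 55385 identifiers matched without version. The design text names 4 Tg/W mice; the labels and the table hold 5, all used.

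Genes were kept by filterByExpr (minimum count 10; 17997 genes), scaled by TMM (giving CPM) and compared with edgeR 4.0.16 (estimateDisp, then the quasi-likelihood F-test, with no covariate). Benjamini-Hochberg adjustment ran over all genes tested, at a threshold of 0.05. Standard errors are the absolute log2 fold change over the root of F. Log2 CPM for ratios and correlations used a prior count of 2. Levels per kb divide CPM by the longest transcript of the best APPRIS principal class. Promoter words were searched in the 250 bases before RefSeq starts. Libraries differed by far more than sampling noise in each comparison of a pair (chi-square per degree of freedom of at least 20.6).

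The members and lists were chosen with earlier results of these data known. Named genes are the 10 members, passing members of 5 related lists (or the 2 with the smallest p), Top2b, Tnfsf10, and the genes most like Mki67 (5) and Ncaph2 (3). The values of 1 passing list gene are not reported here. Cdca5, Pttg1, Incenp, Mcph1, Nifk, Lcorl, Sco2, Tymp, Kctd18 and Rarb were named after their values were seen. Alternatives were RLE factors, library size only, DESeq2 1.42.0, limma-voom (limma 3.58.1) with and without quality weights, no filter, a mean CPM of at least 1, counts thinned to the smallest library, the replicate number as a block, and each library left out. Another edgeR estimation and merged exon lengths were added after seeing the data.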

Additional observations from a re-analysis of the deposited data

Results flagged for a closer look

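With 5 libraries a group, a value counts as far out when its gap to the nearest library exceeds 0.71 of the range of its group; chance alone gives about 5% of groups such a value. Of 30 groups of values examined, 3 had one. Ncapd2 in replicate 2 of the KO-labelled libraries was at 90.2 CPM, with a gap of 0.782 of the range. Ncapd3 in the same library was at 61.1 CPM, with a gap of 0.768. Ncaph in control replicate 3 was at 26.1 CPM, with a gap of 0.751. Mki67 and Top2a were also highest in replicate 2, but their values in the other 4 libraries were too spread out for that gap to pass.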

How the results depend on the processing

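Members passing numbered 3 in the main comparison, 0 with library size only, limma-voom, or limma-voom with quality weights, 7 with DESeq2, 6 with no low-count filter and 5 with the replicate number as a block; leaving out 1 library gave 0 to 6. With library size only, Mki67, Top2a and Ncapg missed the threshold narrowly, each with an edgeR adjusted p of 0.05006. Their limma-voom adjusted p was 0.144 each. All 10 members kept a log2 fold change above 0 in all 20 alternatives, with Mki67 between 2.05 and 2.71, Top2a between 1.90 and 2.54 and Ncaph2 between 0.08 and 0.16; Mki67, Top2a and Ncapg each passed in 10. Over the whole table, 79 genes were called higher in the main comparison and 2 with library size only or either form of limma-voom. DESeq2 called 208 higher, no low-count filter gave 141, and leaving out 1 library gave 2 to 154. The count of members without overlap between the groups was 7 to 8. The 9 calls in the other lists were 0 with library size only and with limma-voom in both forms, and 15 with DESeq2; leaving out 1 library gave 0 to 12. For cohesion regulators 2 became 0 in those 3 settings, 5 with DESeq2, 4 with no filter, 4 with the block and 1 with thinned counts, and 0 to 4 without 1 library. For condensin regulators 7 became 0 in those 3 settings, and 0 to 8 without 1 library. Top2b, at 0.03 in the main comparison, turned to -0.012 without control replicate 2 and to -0.044 without replicate 2 of the KO-labelled libraries, and ranged from -0.044 to 0.053 over all libraries left out. The cause of these changes was not tested. Leaving out 1 library gave differences of 0.57 to 0.80 for Ncapd2/Ncapd3, 0.42 to 0.62 for Ncapg/Ncapg2, 0.28 to 0.52 for Ncaph/Ncaph2 and 1.89 to 2.40 for Top2a/Top2b. Paired by replicate number with a block, the differences of Ncapd2/Ncapd3, Ncapg/Ncapg2 and Top2a/Top2b were again 0.71, 0.54 and 2.14, but an exact sign-flip test of 5 pairs cannot go below p = 0.0625. Same-numbered libraries deviated together with correlations of 0.0679 to 0.433, and for 4 of the 5 numbers both libraries correlated best with each other, a hint from the data that the design does not state; since 1 pair lay under 0.1, the numbers were not taken to pair the libraries. With the block, Ncapd2 (edgeR adjusted p = 0.0245) and Ncapg2 (0.027) passed beside Mki67, Top2a and Ncapg. Over all genes the block raised the calls from 79 to 146 higher and from 0 to 3 lower. Depth limits Ncapg most, with 69 counts in the lowest control.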

Other observations

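The match of Ncaph2 with its neighbour Lmf2 was looked for in the other members after it was seen. Among genes that passed the filter on low counts, a protein-coding gene on the other strand starts within 1000 bases of 4 of the 10 members. Lmf2 and Ncaph2, with 60 bases between their starts, had a Pearson correlation of log2 CPM of 0.981 over the 10 libraries and log2 fold changes of 0.16 and 0.13. Mrpl51, a mitochondrial ribosomal gene 100 bases from the start of Ncapd2, had a correlation of 0.603 with it and a log2 fold change of 0.17 (edgeR adjusted p = 0.997), where Ncapd2 had 1.38. Vps26b, an endosomal sorting gene 110 bases from Ncapd3, had a correlation of 0.079 and a log2 fold change of -0.0082. Ift80, a ciliary transport gene 168 bases from Smc4, had a correlation of -0.043 and a log2 fold change of -0.02. Lmf2, the neighbour that prompted the search, was found by its likeness to Ncaph2, so its close following was known beforehand. The neighbours of the other members had correlations of 0.603 or less. These correlations rest on libraries that share group and depth and carry no test.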
